A study of Mus musculus with 12 samples.

Results

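The 40 genes described here drive the cell cycle: 18 build or run the DNA replication machinery, 10 control the step from G1 to S phase and 12 act in mitosis. They were named by symbol, and each was followed through the H3K27ac, H3K4me1 and H3K4me3 peaks that lie within 10 kb of either annotated end of the gene (mm10). All 40 were found among the 21883 protein-coding genes of unique symbol in the annotation used. The length of that window covered by peaks, in bp, is called the covered length below. The bone marrow cells were sorted as cKit+, a gate that enriches blood stem and progenitor cells, from C57BL/6 mice that were wild type (WT) or carried the Phf6R274X transgene (Tg). Phf6 encodes a chromatin-associated PHD finger protein that is mutated in leukaemia. The promoter that drives the transgene, the age of the mice and whether a library came from 1 animal or a pool are not given in the sources used here. There were 2 libraries per genotype and mark, 12 in all, and p-values measure only the spread between these libraries, which may be technical.

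Before each S phase the origin recognition complex, with Cdc6 and Cdt1, loads the Mcm2 to Mcm7 helicase onto DNA. Cdc45 and the GINS complex then switch the helicase on, and polymerases copy the strands with Pcna as their sliding clamp. D-type cyclins with Cdk4 and Cdk6, and then E-type cyclins with Cdk2, release the E2F factors that switch on these replication genes. The A- and B-type cyclins, Cdk1, the Polo and Aurora kinases and the Bub checkpoint proteins then carry the cell through mitosis, and many of their promoters carry CHR elements, known for repression outside G2 and M phase, and CCAAT boxes, which bind the activator NF-Y. H3K4me3 and H3K27ac mark active promoters, H3K27ac also marks active enhancers, and H3K4me1 marks enhancers and the flanks of promoters. Proliferating blood progenitors express most of these genes.

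The lists held 31257 to 42124 peaks for H3K27ac, 100316 to 130348 for H3K4me1 and 34920 to 39584 for H3K4me3, covering 28.5 to 45.7, 66.3 to 120 and 38.3 to 43.6 Mb. Read depth is unknown. A peak lay over Kit, the gene of the receptor used for the sort, in 12 of the 12 libraries, while Cd34, another progenitor marker, had no H3K27ac within its window in any library. In each of the 4 H3K4me3 lists the genotype written in the peak names is the other one than in the label. The labels are followed below, and every H3K4me3 direction would turn if the names were right. Inside Phf6, beyond 1 kb from its ends, the H3K4me3 libraries labelled WT had 7 and 5 peaks and those labelled Tg 1 and 1. In H3K27ac each library had 1 peak there. In H3K4me1 those labelled WT had 0 and 1 and those labelled Tg 1 and 6. What these peaks mean for the labels was not tested. The H3K4me3 libraries labelled replicate 1 had 5 and 4 peaks at 4 Y-linked genes and 0 at Xist, and those labelled replicate 2 had 0 at the Y-linked genes and 6 and 3 at Xist. The windows are not private to the members, since another protein-coding gene reached into 32 of the 40, and at Mcm7, Pcna, Cdc45, Orc1, Orc6 and Aurka the end of a neighbour lay within 1 kb of the start.

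The promoter sequences set the replication genes apart from the mitosis genes. RefSeq promoters of GRCm38.p6 (mm10), from 250 bp before to 50 bp after the start, were at hand for 31 of the 40 members: 14 replication, 7 G1 to S and 10 mitosis genes. Gins1, Gins2, Mcm4, Pole, Ccnd1, Ccnd2, Ccne2, Ccna2 and Aurkb were not matched. Mcm6 and Mcm5 are shown for the replication genes, with matches to the E2F letters TTTCGCGC, TTTGGCGC, TTTCCCGC or TTTGGCGG on either strand in capitals and overlapping matches joined. The Mcm6 promoter is chr1:128359656-128359955 on the minus strand and the Mcm5 promoter chr8:75109259-75109558 on the plus strand.
Mcm6: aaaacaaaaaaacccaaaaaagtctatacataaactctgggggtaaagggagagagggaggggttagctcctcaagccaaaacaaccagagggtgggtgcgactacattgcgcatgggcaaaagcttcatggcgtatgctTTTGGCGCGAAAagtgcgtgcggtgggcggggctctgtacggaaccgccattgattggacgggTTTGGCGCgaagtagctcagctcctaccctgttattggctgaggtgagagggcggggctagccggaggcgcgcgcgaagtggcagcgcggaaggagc
Mcm5: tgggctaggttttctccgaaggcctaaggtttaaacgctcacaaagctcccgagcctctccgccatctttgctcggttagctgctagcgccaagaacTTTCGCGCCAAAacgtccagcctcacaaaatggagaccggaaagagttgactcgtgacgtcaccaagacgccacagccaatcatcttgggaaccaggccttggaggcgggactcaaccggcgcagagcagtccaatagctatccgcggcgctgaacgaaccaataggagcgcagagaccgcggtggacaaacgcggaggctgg
Mcm6 had matches that began 110 and 47 bp before the start, and Mcm5 had 1 that began 153 bp before it. Such a match occurred in 8 of 14 replication promoters (57.1%), 2 of 7 G1 to S promoters (E2f2 and Cdk2) and 1 of 10 mitosis promoters (Cdk1), against 3.08% of the 17491 promoters searched. The 8 were those of Mcm3, Mcm5, Mcm6, Mcm7, Cdc6, Cdt1, Pola1 and Orc1.

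Most mitosis promoters carried CHR matches, while CCAAT matches were frequent in mitosis and replication promoters alike. Mcm6 and Mcm5, shown above, had 2 and 3 CCAAT matches, which were left in lower case there. In the sequences that follow, capitals mark the CHR letters TTTGAA or TTCGAA and the letters CCAAT, on either strand, and in Cdk1 also its E2F match. Ccnb2 is one of the B-type cyclins that pair with Cdk1, Top2a untangles the copied chromosomes, and Bub1b is the checkpoint protein whose H3K27ac is described further on. Their positions are chr9:70421505-70421804, chr10:69352863-69353162 and chr11:99024140-99024439 on the minus strand for Ccnb2, Cdk1 and Top2a, and chr2:118597961-118598260 on the plus strand for Bub1b.
Ccnb2: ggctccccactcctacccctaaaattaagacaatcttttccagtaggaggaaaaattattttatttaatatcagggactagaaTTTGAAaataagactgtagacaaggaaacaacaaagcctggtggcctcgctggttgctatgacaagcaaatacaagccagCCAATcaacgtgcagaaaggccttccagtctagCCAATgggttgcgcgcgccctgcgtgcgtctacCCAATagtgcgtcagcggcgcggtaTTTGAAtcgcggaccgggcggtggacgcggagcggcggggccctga
Cdk1: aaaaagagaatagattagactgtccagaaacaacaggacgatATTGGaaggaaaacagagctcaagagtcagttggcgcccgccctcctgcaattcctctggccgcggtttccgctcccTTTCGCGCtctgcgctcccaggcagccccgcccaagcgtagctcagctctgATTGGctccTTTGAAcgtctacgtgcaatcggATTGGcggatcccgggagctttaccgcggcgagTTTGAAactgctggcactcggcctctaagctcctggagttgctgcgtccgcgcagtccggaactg
Top2a: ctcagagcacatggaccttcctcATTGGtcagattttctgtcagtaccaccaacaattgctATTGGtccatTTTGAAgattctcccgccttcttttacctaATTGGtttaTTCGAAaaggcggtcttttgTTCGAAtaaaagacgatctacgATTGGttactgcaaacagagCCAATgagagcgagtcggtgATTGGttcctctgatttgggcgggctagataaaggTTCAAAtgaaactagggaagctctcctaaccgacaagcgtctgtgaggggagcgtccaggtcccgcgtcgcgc
Bub1b: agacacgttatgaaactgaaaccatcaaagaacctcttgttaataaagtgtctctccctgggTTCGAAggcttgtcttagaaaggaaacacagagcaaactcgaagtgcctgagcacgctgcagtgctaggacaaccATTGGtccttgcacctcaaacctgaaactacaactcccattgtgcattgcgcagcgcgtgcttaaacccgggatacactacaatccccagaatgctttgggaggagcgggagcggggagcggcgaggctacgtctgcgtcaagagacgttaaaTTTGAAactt
A CHR match was found in 9 of 10 mitosis promoters, Ccnb1 being the exception, in 3 of 14 replication promoters and in 0 of 7 G1 to S promoters, against 18.2% of all. CCAAT occurred in 10 of 10, 12 of 14 and 2 of 7, against 39.0% of all. Both together were present in 9 of 10 mitosis and 3 of 14 replication promoters (Mcm2, Mcm7 and Cdc45), against 7.43% of all. All 3 classes were rich in CpG, with medians of 24, 25 and 24 CG dinucleotides in 300 bp against 13 over all promoters. These matches are letters in a window and were not measured as bound sites.

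H3K4me3 lay over the start of every member that could be examined. All 31 starts were covered in 4 of 4 libraries, against 55.1% of all 17491 starts. H3K27ac covered 28 of 31 starts in all 4 libraries, against 33.9% of all. H3K4me1 covered 0 of 31 in all 4, against 2.78% of all. It left 29 of 31 free of a peak in every library, and 14307 of all 17491 starts. The 2 starts with some H3K4me1 were those of Cdc6, in 1 library, and Ccnd3, in both WT libraries. The 3 starts that missed H3K27ac in 1 library were those of Plk1, Bub1b and Cdc20, a kinase, a checkpoint protein and an activator of the anaphase-promoting complex. Tg replicate 1 was the library without the peak in each case. Mitosis starts were therefore covered by H3K27ac in 10 of 10 cases in WT replicate 1, WT replicate 2 and Tg replicate 2 and in 7 of 10 in Tg replicate 1, while replication starts were covered in 14 of 14 in every library. Tg replicate 1 was the H3K27ac library with the shortest total, 28.5 Mb, and it covered 35.4% of all starts against 42.2% to 44.1% in the others.

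**Figure D1:**
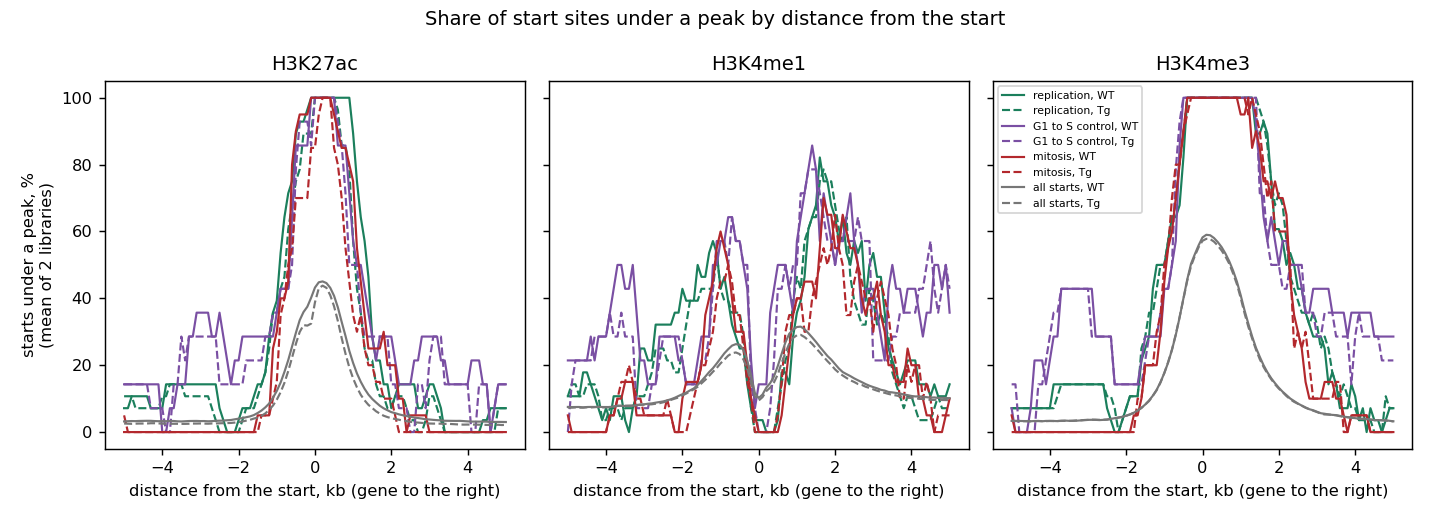
Percent of start sites covered by a peak (vertical axis) against distance from the start in kb (horizontal axis), for each mark and class and for all starts. Each line is the mean of the libraries of a genotype. For the members, H3K4me3 and H3K27ac reach 100% at the start, and H3K4me1 is near 0 there and higher on the flanks. The exception is H3K27ac of the mitosis genes in Tg, lowered by the 70.0% of Tg replicate 1.

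The H3K4me3 peaks reached farther into the gene than away from it. For the 14 replication genes the median peak was 3364.5, 2964.5, 3403.5 and 3293 bp wide in WT replicate 1, WT replicate 2, Tg replicate 1 and Tg replicate 2, an order kept in every set of 4 values below. It extended a median of 2088, 1991, 2034.5 and 2116 bp downstream of the start and 1046.5, 1104, 1069.5 and 1043 bp upstream. Peaks of the 10 mitosis genes were about as wide, with medians of 3189, 3099, 3283.5 and 3082.5 bp, and over all starts with a peak the medians were 2100, 1933, 2080 and 2011 bp. The longer side was the downstream one in all 4 libraries for 25 of 31 members (80.6%), close to the 73.9% over all starts covered in 4 libraries. The median member stood at percentile 82.8 of H3K4me3 width. At the top were Cdk6, a D-cyclin kinase, at 99.4, Rrm2, the small subunit of ribonucleotide reductase, at 98.9, E2f2 at 98.8 and Mki67, the Ki-67 protein of dividing cells, at 96.4.

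H3K27ac was narrower over the same starts. Its median widths were 2183.5, 2199.5, 1846 and 2063.5 bp for replication genes, and for mitosis genes 1889, 1914 and 1892.5 bp in the 3 libraries with all 10 starts covered. Tg replicate 1 held the shortest replication median, and over all starts with a peak the medians were 1719, 1601, 1288 and 1506 bp. Among starts covered in all 4 libraries the median replication gene stood at percentile 72.9 of H3K27ac width. The median of the 7 mitosis genes so covered stood at 50.4. Around the starts H3K4me1 took the flanks: 2 kb downstream of the start it covered 7, 11, 6 and 13 of 14 replication genes and 5, 6, 5 and 8 of 10 mitosis genes. At 2 kb upstream it covered 6, 6, 3 and 4 of 14 replication starts and 1, 1, 0 and 0 of 10 mitosis starts. At 1 kb upstream the classes showed no such gap, with 5, 7, 5 and 7 of 14 and 4, 8, 3 and 6 of 10. Over all starts the point at 2 kb upstream was covered in 8.08%, 14.6%, 7.66% and 14.3%. The point at 1 kb upstream was covered in 16.8%, 27.3%, 15.1% and 26.0% of all starts. For 2 kb downstream the shares of all starts were 14.7%, 26.0%, 13.3% and 24.2%, also lower in the replicate 1 libraries. The class differences at these points were not tested.

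**Figure D2:**
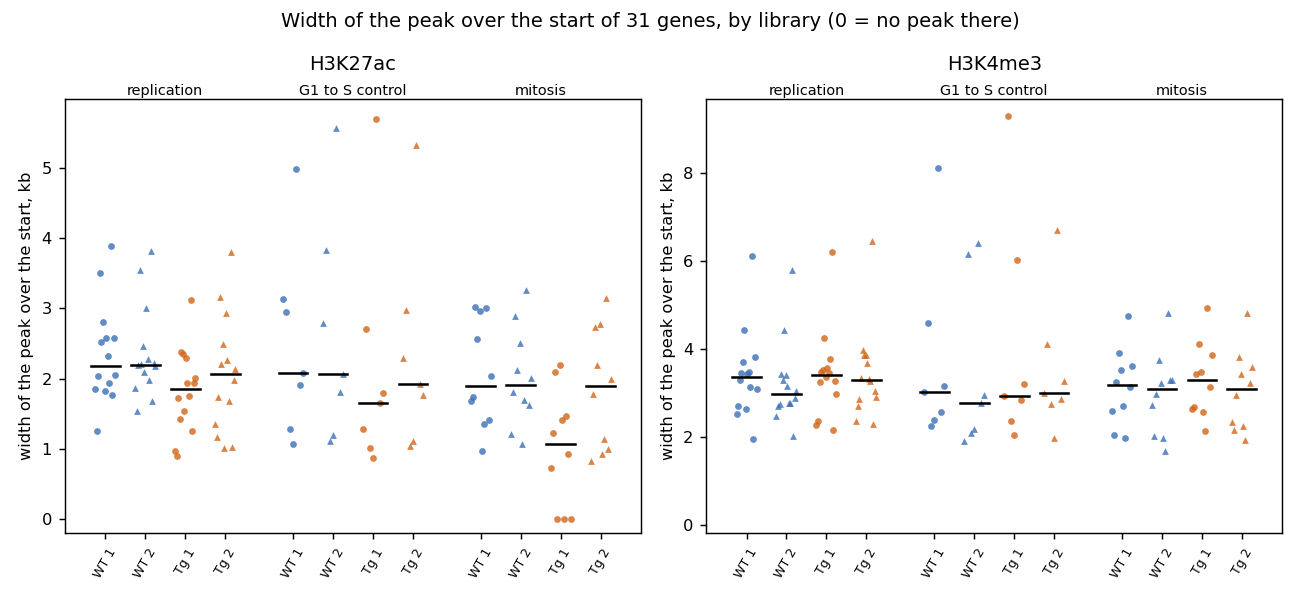
Width in kb of the peak over each member's start (vertical axis) by library and class, for H3K4me3 and H3K27ac, with 1 point per gene, 0 for a start without a peak and a bar at the median of all points. The H3K4me3 widths overlap between classes and libraries, and 3 mitosis genes sit at 0 for H3K27ac in Tg replicate 1.

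Relative to the length of their windows, the G1 to S genes carried most of each mark. Their median share of the window under H3K27ac peaks was 14.3%, against 7.44% for replication, 6.81% for mitosis and 6.01% for all 13076 genes tested. That G1 to S median is over the 9 genes tested and leaves out Ccnd1, which had no H3K27ac peak. For H3K4me3 the shares were 20.1%, 10.4%, 12.7% and 7.61%, and for H3K4me1 22.4%, 11.2%, 10.01% and 9.61%. As percentiles among the genes tested, the median G1 to S, replication and mitosis gene stood at 85.8, 60.5 and 56.3 for H3K27ac, at 82.6, 55.9 and 51.1 for H3K4me1 and at 90.8, 65.8 and 74.6 for H3K4me3. These genes were listed for their roles, and other genes reach into many of their windows, so the shares are given as a description.

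By share of the window, replication and mitosis genes differed little, and in the promoter marks their order depended on the mark. The median share under H3K27ac was 9.11%, 7.62%, 6.02% and 8.23% for replication genes and 8.43%, 7.30%, 5.27% and 7.25% for mitosis genes. Replication genes were thus the higher class in each of the 4 libraries, by less than the range between libraries. Their H3K27ac was also the longer in covered length in each library. The medians were 3598, 2963, 2117 and 3281.5 bp against 2600.5, 2145.5, 1768 and 2298 bp for mitosis genes. For H3K4me3 the medians were 10.8%, 9.56%, 11.5% and 10.2% in replication and 12.3%, 11.7%, 13.6% and 12.5% in mitosis genes. By this share mitosis genes were higher in each library. In covered length they were not: the H3K4me3 medians were 4106.5, 3741.5, 4209 and 4054 bp for replication and 4163, 3865.5, 4203 and 3939 bp for mitosis genes, so replication genes were the longer in both libraries labelled Tg. H3K4me1 gave no steady order, with 8.93%, 15.6%, 7.41% and 13.3% for replication and 5.98%, 14.9%, 4.91% and 13.9% for mitosis. In both classes the H3K4me1 libraries labelled replicate 1 were lower than those labelled replicate 2, whatever the genotype, as were their totals of 66.3 and 70.7 against 120 and 117 Mb.

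**Figure D3:**
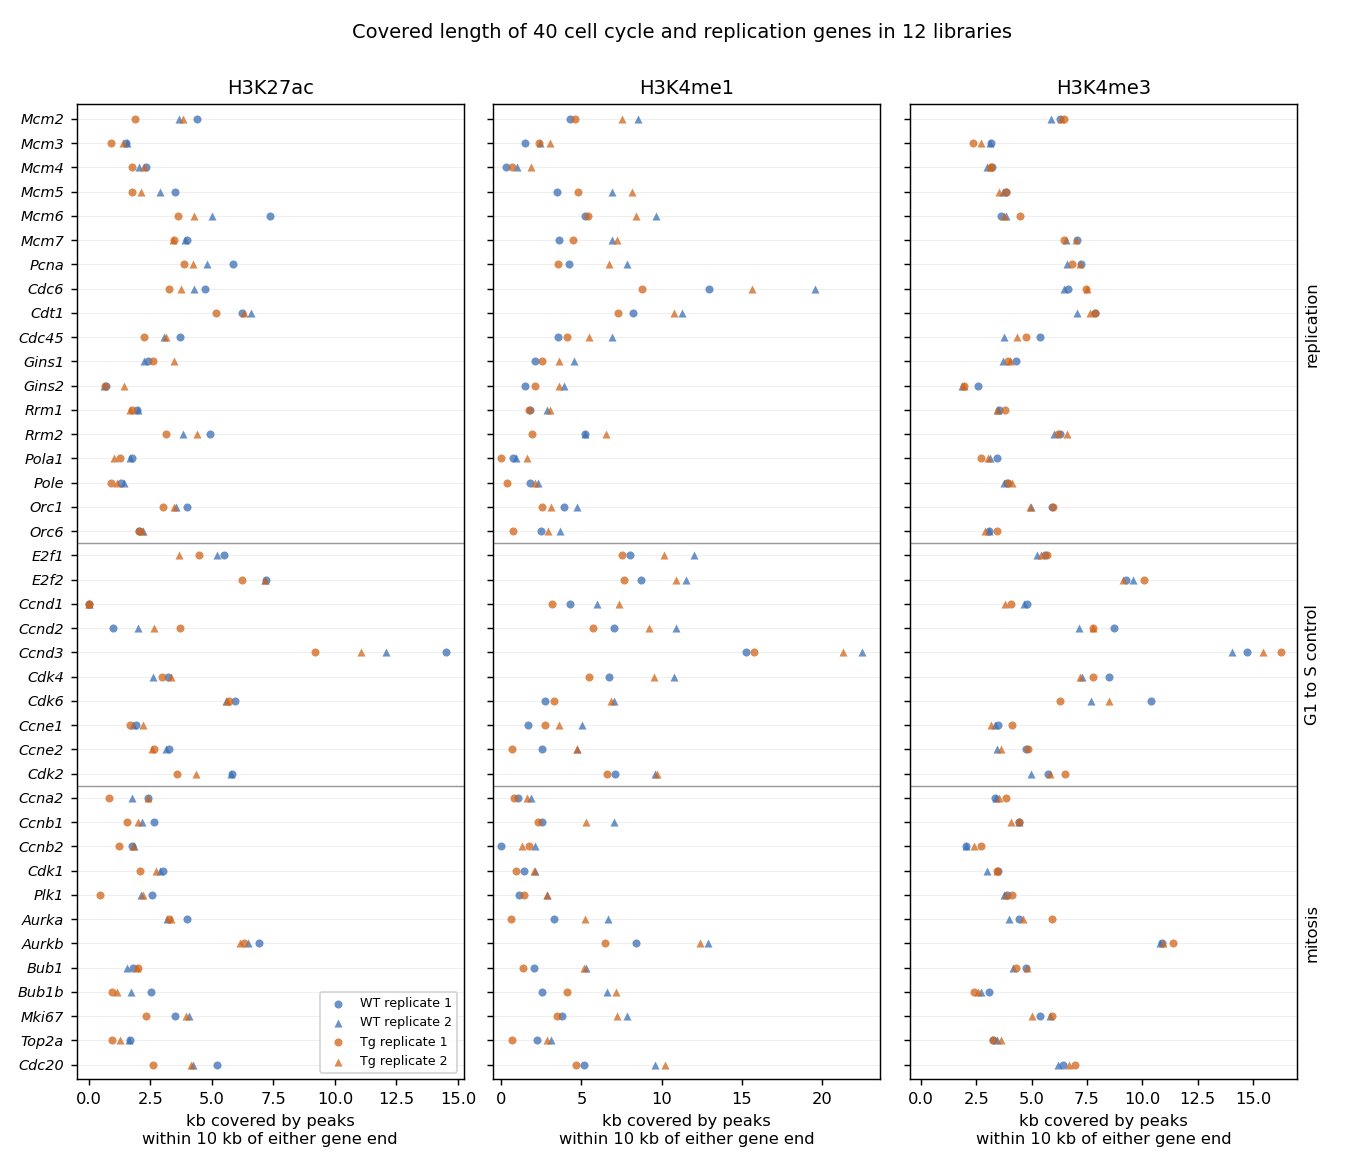
Covered length in kb within 10 kb of either gene end (horizontal axis) for each member (rows), by mark and class. There is 1 point per gene and library, and class medians are not drawn. The H3K4me1 medians of the replication and of the mitosis genes in replicate 1 lie below those in replicate 2 in both genotypes, and Tg replicate 1 has the lowest H3K27ac median of the replication and of the mitosis genes.

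Single members differed more than the classes did. Ccnd3, the D-type cyclin that dominates in many blood cells, had 36.3%, 30.2%, 22.9% and 27.7% of its window under H3K27ac, and Cdt1, the licensing factor, 24.7%, 26.2%, 20.5% and 25.1%. Aurkb, the kinase of the chromosomal passenger complex, had 26.6%, 24.8%, 24.3% and 23.5%. At the other end Gins2, a GINS subunit, had 2.47%, 2.16%, 2.39% and 5.19%, and Pole, the catalytic subunit of the leading-strand polymerase, 3.23%, 3.52%, 2.20% and 2.83%. The first 3 genes lay above the last 2 in every library, but these 5 were named for their high or low values here. Ccnd1, with 0% in every library, lay lower still. Near their ends (within 1 kb), 36 of 40 members had an H3K27ac peak in all 4 libraries against 43.3% of all genes, 39 had H3K4me3 against 58.8%, and 22 had H3K4me1 against 43.4%. The member without H3K4me3 there was Orc1, whose RefSeq start (chr4:108579454) lies inside the annotated gene and was covered in all 4 libraries. For H3K27ac, Orc1, Ccnd1, Ccnd2 and Ccna2 were the exceptions.

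The D-type cyclins, which carry growth signals to Cdk4 and Cdk6, showed contrasting chromatin. Ccnd1 (chr7:144929931-144939831) had no H3K27ac within its window in any library, yet H3K4me3 covered 4770, 4671, 4078 and 3811 bp and H3K4me1 4275, 5957, 3184 and 7317 bp. One H3K4me3 region (chr7:144937589-144940767) spanned its upper annotated end in every library. Ccnd2 (chr6:127125162-127152188) had an H3K4me3 region over its upper end (chr6:127148600-127155819) with 7132, 6616, 6803 and 7049 bp under peaks. An H3K27ac region inside the gene (chr6:127149199-127151066) held 981, 1534, 1821 and 1785 bp. A separate H3K27ac region over the annotated end (chr6:127151367-127152460) had 0 and 0 bp in WT against 971 and 577 bp in Tg. Those 2 Tg peaks ranked at percentiles 25.8 and 42.6 of the deposited −log10 q in their own lists, below the middle of those lists. Ccnd3 (chromosome 17) had H3K27ac at both ends, with 14512, 12089, 9172 and 11073 bp in its window.

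**Figure D4:**
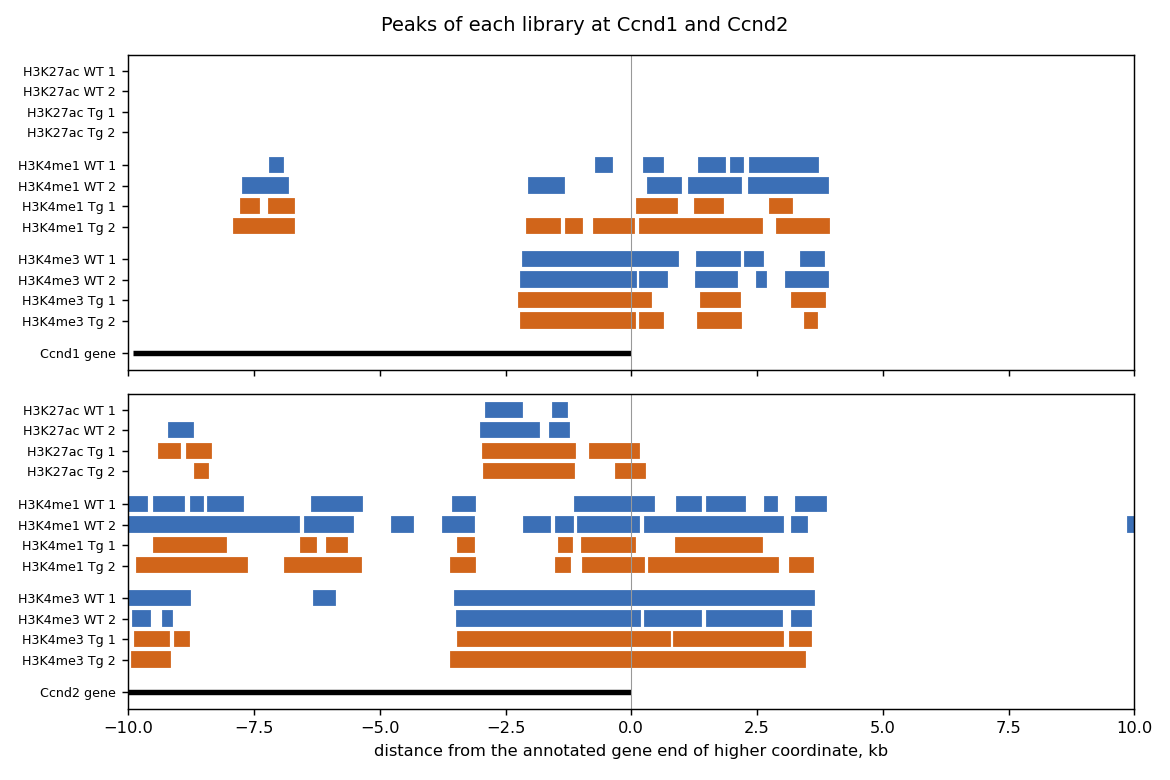
Peaks of the 3 marks in each library (rows) around the upper annotated end of Ccnd1 and Ccnd2, with distance from that end in kb on the horizontal axis. Ccnd1 has no H3K27ac bar in any library, and at Ccnd2 the H3K27ac bars that reach the annotated end are in the 2 Tg libraries.

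No cell cycle gene passed the test for a difference between genotypes in H3K27ac. Covered lengths were taken to log2 after adding 500 bp, quantile normalized and compared in limma, with Benjamini-Hochberg adjustment over all genes tested and a threshold of 0.05. Of the 39 members tested 0 passed, against 36 of 13076 genes (0.275%), and Ccnd1 was not tested for want of peaks. At an unadjusted p under 0.05 there were 7 of 39 members (17.9%), against 12.6% of all genes. The lowest adjusted p of a member was 0.219. In bulk chromatin a smaller share of cells with the mark and less mark per cell cannot be told apart. The 95% confidence interval of the difference lay within 1 log2 unit of 0 on both sides for 36 of 39 members. Differences over 2-fold were thus outside the interval for most of them only on the scale tested, normalized and with 500 bp added. Fold differences in bp could be larger. Bub1b averaged 2117.5 bp in WT and 1038 bp in Tg, yet its interval was −0.93 to −0.14. The Tg minus WT median was 0.01 for replication, 0.22 for G1 to S and −0.08 for mitosis genes on the log2 scale, against 0.03 for all genes tested. Of the members, 19 were higher and 20 lower in Tg. Without normalization 6 were higher and 33 lower, and the median of all genes was −0.20. Leaving out Tg replicate 1 gave 87 genes past the threshold and a mitosis median of 0.0471, leaving out any other library gave 0 genes, and no member passed in either case.

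Before normalization most members had less H3K27ac in Tg, and so had the lists as a whole. Both Tg libraries lay below both WT libraries in covered length for 21 of 39 members, against 45.3% of all genes tested, and above them for 3 of 39, against 5.5%. The 21 were Mcm3, Mcm5, Mcm6, Mcm7, Pcna, Cdc6, Rrm1, Pola1, Pole and Orc1 among replication genes, E2f1, E2f2, Ccnd3, Ccne2 and Cdk2 among G1 to S genes, and Ccnb1, Cdk1, Aurkb, Bub1b, Top2a and Cdc20 among mitosis genes. Bub1, Gins1 and Ccnd2 were the 3 above. After quantile normalization 12 lay above and 6 below, against 25.4% and 19.6% of all genes. The libraries themselves covered 45.7 and 36.6 Mb in WT and 28.5 and 33.8 Mb in Tg. Windows of 8 mature granulocyte markers held 101 and 107 kb of H3K27ac in WT and 53.1 and 46.2 kb in Tg, with a peak near 8, 8, 7 and 7 of them and none at 0 in all 4. The same granulocyte windows held 49.1, 101, 55.9 and 102 kb of H3K4me1 and 43.7, 43.5, 74.4 and 46.8 kb of H3K4me3, without such a fall. Windows of 8 progenitor markers held 23.1, 20.9, 17.3 and 21.2 kb of H3K27ac, with a peak near 4, 4, 4 and 5 of them and Cd34 at 0 in all 4. The part of either list in the members' values was not tested.

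Among the replication genes, the helicase and its activators held the extremes. Gins1 and Gins2 are subunits of the GINS complex. H3K27ac at Gins1 covered 2394 and 2258 bp in WT against 2598 and 3451 bp in Tg, so the Tg libraries were both higher (log2 difference 0.55 ± 0.14 SE, limma adjusted p = 0.219). Regions inside Gins1, at chr2:150915119-150915537 and chr2:150921513-150922374, were present in both Tg libraries, with 338 and 215 bp and with 860 and 524 bp, and in neither WT library. Gins2 covered 687 and 602 bp in WT against 664 and 1442 bp in Tg (0.61 ± 0.19, adjusted p = 0.278). The groups overlapped there, and a 500 bp region seen only in Tg replicate 2 made up part of its value. Mcm5, a helicase subunit, went the other way, with 3486 and 2883 bp in WT against 1731 and 2135 bp in Tg (−0.37 ± 0.13, adjusted p = 0.350). The region over its start held 2036 and 2198 bp in WT against 1731 and 1734 bp in Tg. A region inside the gene (chr8:75119412-75120518) held 1107 and 685 bp in WT against 0 and 401 bp in Tg.

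The rest of the helicase and the fork showed smaller differences. Mcm6 covered 7349 and 5011 bp in WT against 3625 and 4261 bp in Tg (−0.28 ± 0.16, adjusted p = 0.557), and Mcm2 covered 4388 and 3681 against 1875 and 3830 bp, where Tg replicate 1 alone was low. Mcm3, Mcm4 and Mcm7 differed by −0.11, 0.11 and 0.10, Cdc45 by −0.04 and the loaders Cdc6 and Cdt1 by −0.04 and 0.16. The origin recognition subunits Orc1 and Orc6 differed by 0.08 and 0.19. Pcna covered 5866 and 4811 bp in WT against 3881 and 4250 bp in Tg, which came to −0.06 ± 0.13 after normalization. The ribonucleotide reductase subunits Rrm1 and Rrm2, which make deoxynucleotides, differed by 0.05 and 0.09 and Pole by −0.09. X-linked Pola1, the primase-bound polymerase, covered 1764, 1684, 1260 and 1027 bp (−0.25 ± 0.20), both Tg libraries being the shorter. The adjusted p of the genes in this paragraph was 0.557 or more.

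In the G1 to S group Ccnd2 had the largest difference of any member. Its H3K27ac covered 981 and 2012 bp in WT against 3683 and 2624 bp in Tg (1.14 ± 0.38, adjusted p = 0.320), with both Tg libraries above both WT libraries. The region at the annotated end held no H3K27ac in either WT library. A region farther inside the gene (chr6:127142795-127143828) was empty only in the shorter WT library, replicate 1, with 0, 478, 891 and 262 bp. Cdk4, the partner of the D-type cyclins, covered 3224 and 2607 bp in WT against 2965 and 3316 bp in Tg (0.35 ± 0.13, adjusted p = 0.377), and its groups overlapped. E2f2 covered 7194 and 7162 bp in WT against 6224 and 7146 bp in Tg. E2f1, its activating relative, covered 5497 and 5214 against 4477 and 3649 bp. Cdk6 and Ccne1 differed by 0.28 and 0.24, E2f2 by 0.22, and Ccne2, Ccnd3, E2f1 and Cdk2 by −0.01, −0.07, −0.09 and −0.20.

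Of the mitosis genes, Bub1 and Bub1b, relatives that act in the spindle checkpoint, differed in opposite directions. Bub1 covered 1775 and 1561 bp in WT against 2003 and 1944 bp in Tg (0.40 ± 0.16, adjusted p = 0.391), while Bub1b covered 2539 and 1696 bp in WT against 930 and 1146 bp in Tg (−0.54 ± 0.16, adjusted p = 0.267). Neither pair of groups overlapped. The H3K27ac region at the annotated end of Bub1b where it starts held 1362, 1696, 930 and 1146 bp, though in Tg replicate 1 its peaks left the start itself uncovered, and 2 regions of 680 and 497 bp inside the gene were seen only in WT replicate 1. Plk1, the Polo kinase, covered 2561, 2116, 460 and 2189 bp (−0.57 ± 0.39, adjusted p = 0.613). Tg replicate 1 was the library that stood low, and the other Tg library lay between the WT libraries. Ccna2, the A-type cyclin, was also lowest there, with 2381, 1754, 804 and 2407 bp. Ccnb1, Top2a and Cdc20 differed by −0.14, −0.22 and −0.17, Cdk1, Ccnb2 and Mki67 by −0.02, 0.01 and 0.00, and Aurka and Aurkb by 0.16 and 0.20.

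**Figure D5:**
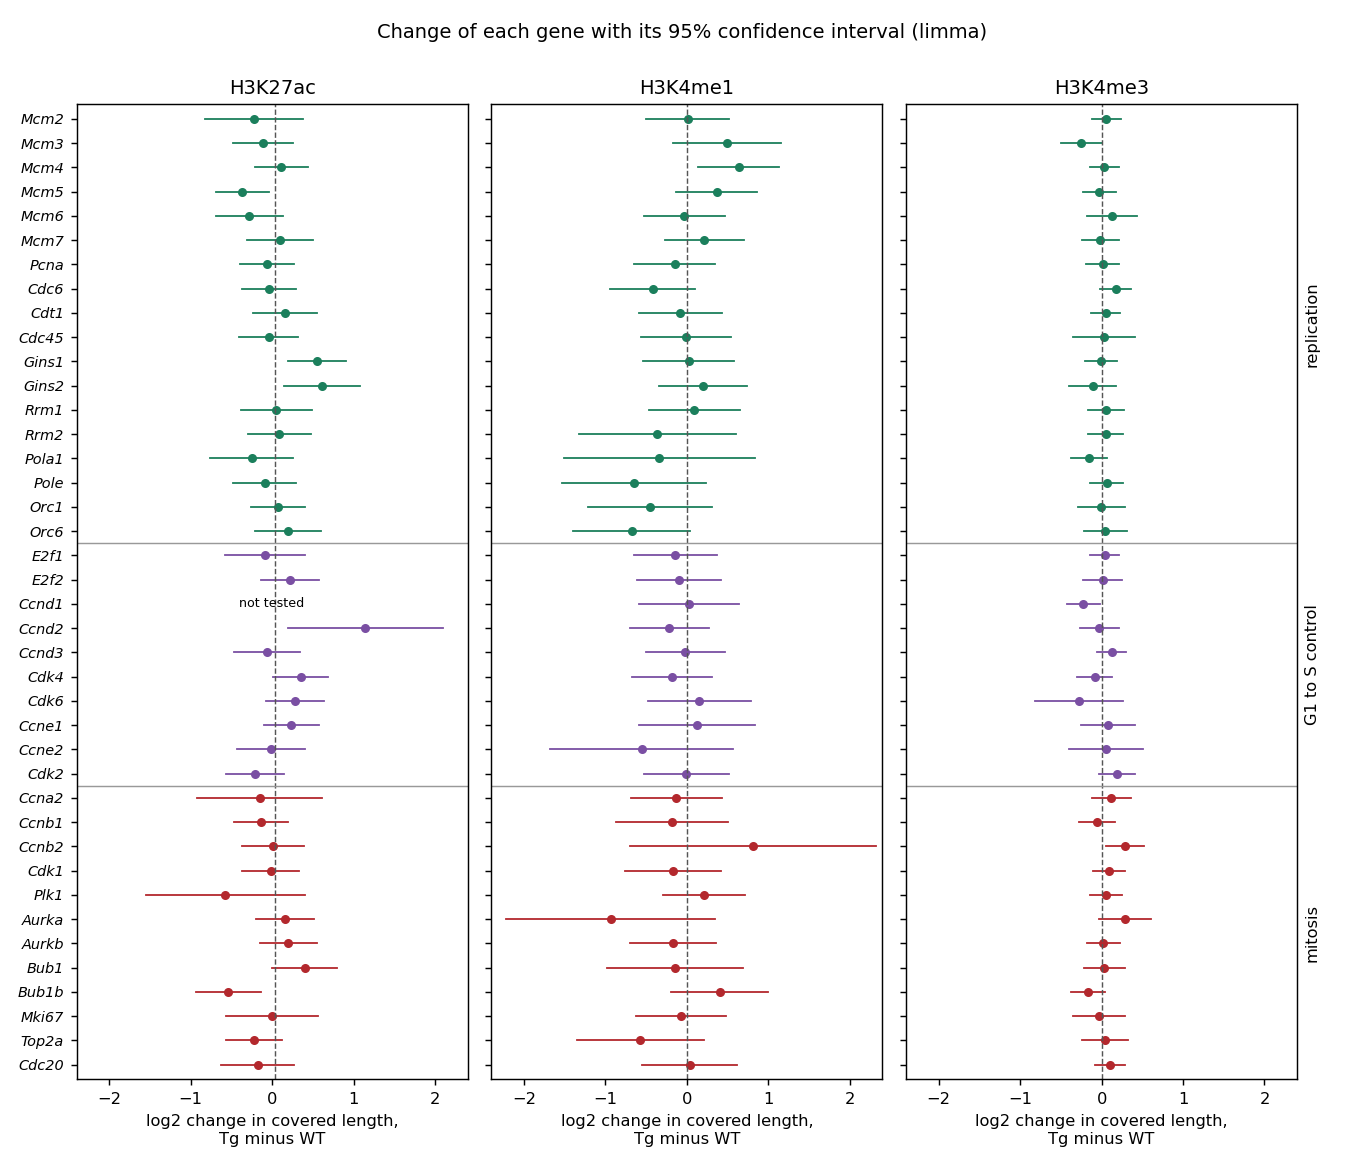
Tg minus WT difference in normalized log2 covered length (horizontal axis) for each member and mark, with 95% confidence intervals of limma, by class. Most intervals include 0, none of the points passed the adjusted threshold, and H3K4me1 has the widest intervals (median standard error 0.22) and H3K4me3 the narrowest (0.08).

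H3K4me1 also showed no member past the threshold. In limma 0 of 40 passed, against 0 of 15829 genes (0%), and at an unadjusted p under 0.05 there was 1 of 40, Mcm4, against 7.97% of all genes. The interval lay within 1 log2 unit of 0 for 29 of 40 members. Medians were −0.02 for replication, −0.06 for G1 to S and −0.14 for mitosis genes, with 15 members higher and 25 lower in Tg, against 0.00 for all genes tested. The signs of the H3K4me1 medians were not stable. The mitosis median was 0.0466 without WT replicate 2, 0.0212 without Tg replicate 1 and 0.0213 within 2 kb of either gene end, and the replication median was 0.00686 without Tg replicate 2 and 0.0937 within 2 kb of the start. In covered length both Tg libraries lay below both WT libraries for 1 of 40 members, Orc1 (3904 and 4691 against 2552 and 3106 bp), against 6.58% of all genes, and above for 0 of 40, against 2.6%. After normalization 6 lay above and 9 below, against 19.4% and 19.7%.

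At the 3 members with the most negative H3K4me1 differences, Tg replicate 1 was the lowest library. Aurka, the kinase of the spindle poles, covered 3283, 6654, 622 and 5194 bp (−0.93 ± 0.51, adjusted p = 0.705). Orc6 covered 2474, 3646, 732 and 2898 bp (−0.68 ± 0.29), and Pole 1758, 2271, 334 and 2127 bp (−0.65 ± 0.35). In each of these the other Tg library lay within the WT range. Pola1 was listed with 742, 942, 0 and 1630 bp. Ccnb2, one of the B-type cyclins, was the reverse case, with 0 bp in WT replicate 1 and 2112, 1740 and 1296 bp in the others (0.81 ± 0.60, adjusted p = 0.760). Mcm4 had little H3K4me1 throughout, 307, 985, 676 and 1830 bp (0.63 ± 0.20, adjusted p = 0.533), and its groups overlapped. Mcm3 covered 1450, 2396, 2377 and 3012 bp (0.49 ± 0.26). The longest H3K4me1 was at Ccnd3, with 15277, 22516, 15780 and 21310 bp, and at Cdc6, with 12941, 19582, 8782 and 15633 bp, and in both the replicate 1 libraries were the shorter ones.

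H3K4me3 was the most even mark across libraries. No member passed in limma (0 of 40, against 0 of 15796 genes, 0%), and at an unadjusted p under 0.05 there were 2 of 40, Ccnd1 and Ccnb2, against 4.81% of all genes. All 40 intervals lay within 1 log2 unit of 0. By label, medians were 0.03 for replication, 0.03 for G1 to S and 0.05 for mitosis genes, with 26 members higher and 14 lower in the libraries labelled Tg, against 0.00 for all genes tested. In covered length both libraries labelled Tg lay above both labelled WT for 10 of 40 members, against 11.7% of all genes, and below for 4 of 40, against 18.8%. The 10 were Mcm2, Cdc6, Pole, Ccnd3, Cdk2, Ccna2, Ccnb2, Aurka, Aurkb and Cdc20, 5 of them mitosis genes, and the 4 were Mcm3, Pola1, Ccnd1 and Bub1b. After normalization 11 lay above and 4 below, against 17.7% and 17% of all genes.

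The largest H3K4me3 differences among the members were small. Cdk6 covered 10381 and 7675 bp in the libraries labelled WT and 6282 and 8501 bp in those labelled Tg (−0.28 ± 0.20, adjusted p = 0.918), with overlapping groups. Ccnd1 covered 4770 and 4671 against 4078 and 3811 bp (−0.23 ± 0.08, adjusted p = 0.916), and Mcm3 3163 and 3110 against 2370 and 2691 bp (−0.25 ± 0.09, adjusted p = 0.916). The groups did not overlap in either. Higher in the libraries labelled Tg were Ccnb2, with 2030 and 2017 against 2689 and 2395 bp (0.29 ± 0.09), Aurka, with 4447 and 3981 against 5935 and 4622 bp (0.29 ± 0.12), and Cdk2, with 5755 and 4951 against 6515 and 5812 bp (0.19 ± 0.08). Each had an adjusted p of 0.916. X-linked Pola1 covered 3432 and 3126 against 2702 and 3015 bp, and the libraries differ in the Y-linked and Xist peaks given above, whose part in this value was not tested. The longest H3K4me3 was at Ccnd3, with 14738, 14072, 16274 and 15476 bp, and Aurkb, with 10909, 10819, 11411 and 10944 bp, and the shortest at Ccnb2 and at Gins2, with 2553, 1868, 1930 and 1965 bp.

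Of 85 further genes of the same pathways, 36 of replication, 14 of the G1 to S step and 35 of mitosis, 0 passed in either direction in any mark, against the 36 of 13076, 0 of 15829 and 0 of 15796 genes given above for H3K27ac, H3K4me1 and H3K4me3. In H3K27ac 36, 13 and 35 of them were tested, their medians were −0.05, −0.13 and −0.02, and 2, 1 and 5 (5.56%, 7.69% and 14.3%) had an unadjusted limma p under 0.05, against 12.6% of all genes. The H3K4me1 medians were −0.13, −0.19 and −0.13 and the H3K4me3 medians 0.03, 0.05 and 0.05.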

How the data were processed

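ChIP-seq of H3K27ac, H3K4me1 and H3K4me3 was run on 12 libraries. The submitters' processing notes name mm10 as the build and, among the tools, Bowtie2, MACS2, SAMtools, FastQC, deepTools and Trim Galore. Their versions, settings and any control library are not given in the sources used here. The authors deposited 1 narrowPeak list per library, with positions, a score, a ratio (fold enrichment), and −log10 p- and q-values. The deposited −log10 q served only to rank peaks within a list and for a stricter peak threshold, and the deposited score and ratio were not used. The lists hold no read counts, so depth and the precision it gives are unknown.

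Gene positions were those of RefSeq for GRCm38.p6 (mm10), in a table without strand, and starts and strands came from the RefSeq promoters. Covered length counts each base under a peak once, and coordinates are 1-based. A gene was tested when at least 2 of its mark's 4 libraries had a peak in the window. Tg was compared with WT by limma 3.58.1 (lmFit, eBayes) in R 4.3.3, without a replicate block, and the script was tested on simulated data. An exact permutation test of 2 against 2 libraries cannot give a p below 0.333, so none was used. Adjusted p-values in the report are limma's. The members and lists were chosen with earlier results of these data known. Values in every library are given for each mark's 3 largest differences each way, 2 longest and 2 shortest covered lengths, for members without an H3K27ac or H3K4me3 peak in a library, and for X-linked Pola1. Values given for other members were chosen after they were seen. Alternatives were other or no normalization, another added constant, no filter, a smaller window, stricter peaks, the replicate block and leaving out each library. Python 3.11.15, pandas 2.3.3 and matplotlib 3.10.9 made the tables and plots.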

Additional observations from a re-analysis of the deposited data

How the results depend on the processing

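No member passed the limma threshold in any mark under any alternative run, and of 165 recomputed values 136 moved by less than 1 SD between libraries (medians and ratios) or stayed within 1.5 times (counts). Some medians near 0 turned sign within that spread. The 136 include values that could not move or were 0 throughout. Medians with a replicate block, in either pairing, had to equal the main ones, because each block holds 1 library per genotype. The counts of members past the threshold were 0 in every run. The number of all genes past the threshold in H3K27ac, 36, did not hold. It was 1 without normalization, 3 with libraries scaled to equal total covered length, 0 with 100 bp added before log2, 8 without the filter on low values, 8 within 2 kb of either gene end, and 0 with peaks of −log10 q of at least 5. Leaving out 1 library gave 0 to 87, with 87 without Tg replicate 1 and 0 without any other, where the lone library is assumed to vary like the others. Without the filter 1 gene passed in H3K4me1 and 4 in H3K4me3, against 0 in each. Within 2 kb of the start, an alternative added after seeing the data, 1 gene passed in H3K27ac. The cause was not tested.

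The labels do not say that a replicate number marks a shared animal or batch. Deviations of same-numbered libraries from their group means correlated at −0.199 in H3K27ac, 0.209 in H3K4me1 and −0.0832 in H3K4me3. A replicate block left 6 genes and 0 members past the threshold in H3K27ac, and the crossed pairing, added after seeing the data, left 15 genes and 0 members.

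The H3K27ac median of replication genes, 0.01, was −0.25 without normalization, where all genes had −0.20. That of mitosis genes, −0.08, was −0.31 without normalization, 0.02 with the stricter peaks and −0.20 to 0.0471 when 1 library was left out, above 0 without Tg replicate 1. That of replication genes was −0.0282 to 0.0361 when 1 library was left out. The H3K4me1 median of mitosis genes, −0.14, was 0.0213 within 2 kb of either gene end, 0.0646 within 2 kb of the start and −0.185 to 0.0466 when 1 library was left out, and that of replication genes, −0.02, was 0.0937 within 2 kb of the start and −0.0272 to 0.00686 when 1 library was left out. The H3K4me3 median of replication genes, 0.03, was 0.0085 within 2 kb of either gene end, 0.0499 with the stricter peaks and 0.0016 within 2 kb of the start. That of mitosis genes, 0.05, was 0.0201 within 2 kb of either gene end, 0.017 within 2 kb of the start and 0.0379 to 0.0846 when 1 library was left out. The ratio of median covered length, replication over mitosis, moved from 1.35 to 1.14 in H3K27ac and from 0.996 to 1.06 in H3K4me3 within 2 kb of the gene ends.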
